A study of Cocos nucifera and Zingiber officinale with 11 samples.

Results

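The copper miRNAs are the plant miRNA families MIR-397, MIR-398, MIR-408 and MIR-857, and they were followed here in edible plant-derived exosome-like nanoparticles (EPDELNs), the membrane-bound particles that can be pelleted from plant juice. Members were chosen by number alone: each miRNA name with the number of one of these families, whatever its species prefix, letter or arm. This gave 11 of the 418 miRNA names in the data, 6 of MIR-398, 4 of MIR-408, 1 of MIR-397 and 0 of MIR-857. Small RNA was sequenced from the EPDELNs of ginger rhizome and of the fruit of 10 plants, namely tomato, soybean, pear, pea, orange, kiwifruit, Hami melon, grapefruit, coconut and blueberry. Each plant gave 1 library, so there were no replicates and no member could be tested between 2 plants. The plants were bought at a market, with no genotype, treatment or copper supply given in the labels. All particles were collected by differential centrifugation of juice, which was squeezed by hand (blueberry, grapefruit, kiwifruit, orange and pear), ground with buffer (ginger, Hami melon, pea, soybean and tomato) or obtained in a way not given in the sources used here (coconut). The pea library is also labelled as Lima bean, and the name used in the study is kept.

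In plants these families belong to the response to copper shortage. In Arabidopsis, the factor SPL7 switches them on when copper is scarce, and they lower the amounts of copper-binding proteins that the cell can spare. MIR-398 acts on the copper/zinc superoxide dismutases CSD1 and CSD2, which detoxify superoxide, and on their copper chaperone CCS. MIR-397, MIR-408 and MIR-857 act on laccases, copper oxidases of the cell wall that polymerise lignin, and MIR-408 also acts on plantacyanin, a small blue copper protein. A miRNA is cut from a hairpin with 2 arms, 5p and 3p. The arm that guides silencing is the 3p arm in MIR-398 and MIR-408 and the 5p arm in MIR-397, while the other arm is mostly degraded.

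The names carry the code of the species of the reference sequence and not of the plant studied, for example mtr for Medicago truncatula, zma for Zea mays, ath for Arabidopsis thaliana, ptc for Populus trichocarpa, osa for Oryza sativa, ppt for Physcomitrella patens and smo for Selaginella moellendorffii. The reference sequences of the 11 members, as the deposited table gives them, are shown first, because most of the results turn on which of them the listed reads resembled. They are written 5′ to 3′ with the seed, bases 2 to 8, in capitals. The 3 names of the MIR-398 3p arm share the seed GTGTTCT, and mtr-MIR-398c, whose name gives no arm, was placed there because its nearest arm-named reference was zma-MIR-398b-3p.
mtr-MIR-398c: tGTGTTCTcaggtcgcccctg
mtr-MIR-398a-3p: tGTGTTCTcaggtcacccctt
zma-MIR-398b-3p: tGTGTTCTcaggtcgcccccg
zma-MIR-398b-5p: gGGGCGGActgggaacacatg
ptc-MIR-398c-5p: gGAGCGACctgaaatcacatg
ath-MIR-398a-5p: aAGGAGTGgcatgtgaacaca
mtr-MIR-408-3p: aTGCACTGcctcttccctggc
osa-MIR-408-3p: cTGCACTGcctcttccctggc
ppt-MIR-408b: tGCACTGCctcttccctggct
smo-MIR-408: tGCACTGCctcttccctggctg
mtr-MIR-397-5p: tCATTGAGtgcagcgttgatg

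Counting bases from the 5′ end, the references of mtr-MIR-398a-3p and mtr-MIR-398c differ by A15G and T21G, and those of mtr-MIR-398c and zma-MIR-398b-3p by T20C. The 4 MIR-408 references are 1 sequence shifted by 1 base or ending 1 or 2 bases apart, except for A1C between mtr-MIR-408-3p and osa-MIR-408-3p. The authors assigned reads at up to 2 mismatches, so reads of such near-identical references may be split among names, and sums over a family or arm are given below beside the single names.

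Levels are in RPM, the reads of a miRNA scaled to a common total for all libraries, and each RPM value was converted back to whole reads through the smallest step of its library. The read total behind RPM ranged from 236959 in ginger to 6518871 in kiwifruit, and the reads assigned to miRNAs from 4541 in coconut to 377989 in kiwifruit. The smallest listed value was 5 reads in each library except ginger, where it was 7 reads or 29.5 RPM. A name that was not listed may therefore have been present below that limit. The intervals given are at the 95% level, exact Poisson for RPM and Wilson for shares, and they cover counting error only.

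The 11 members were listed in 35 of the 121 possible pairs of name and library (28.9%), where all 418 names were listed in 20.7% of theirs. MIR-398 was the widespread family by name, with 5p names listed in 10 libraries and 3p names in 9. In 9 libraries a 5p name was zma-MIR-398b-5p, listed with sequences of 16 or 17 nt that never matched the reference in full. Below, the 5p arm means the 5p names, whatever their listed sequence. MIR-408 was listed in 7 libraries, and MIR-397 in kiwifruit and Hami melon alone. Ginger listed no member, and zma-MIR-398b-5p was the sole member found in coconut. Of the members, zma-MIR-398b-5p and mtr-MIR-398c reached 8 or more libraries, 2 of 11 (18.2%), beside 6.22% of all names. At the other end, 4 of the 11 members (36.4%) were listed in a single library, and the matching share of all names was not computed.

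**Figure D1:**
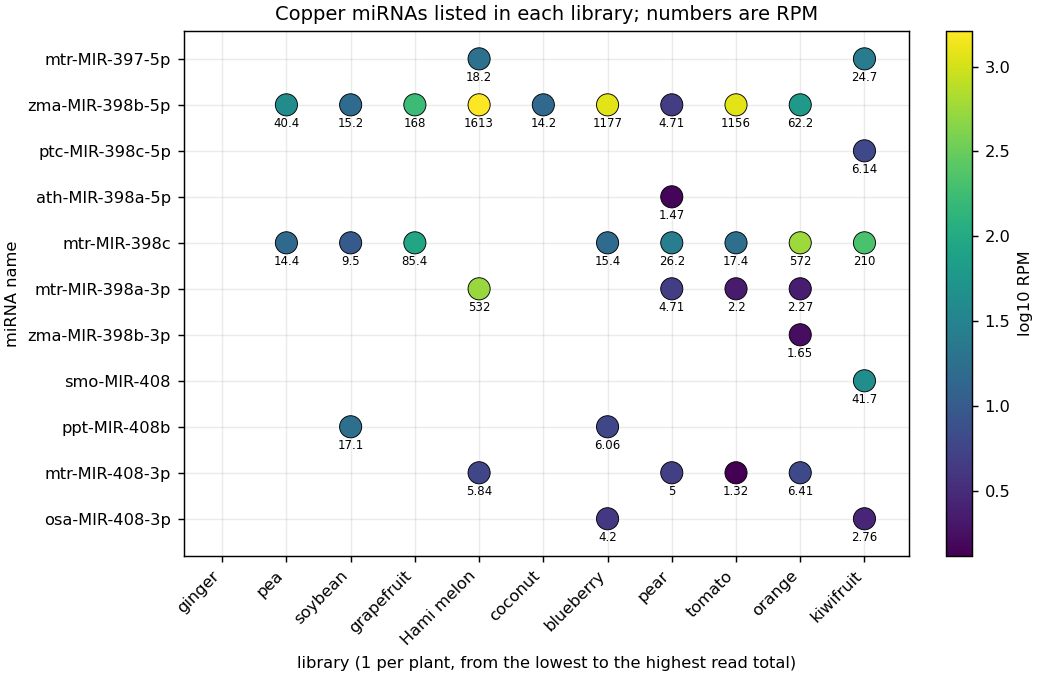
Each circle is a copper miRNA (row) listed in the library of 1 plant (column, from the lowest to the highest read total), with its level in RPM printed under it and coloured on a log10 scale. Rows of zma-MIR-398b-5p and mtr-MIR-398c are filled in 9 and 8 libraries, and the ginger column is empty.

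Most of these levels were low. Of the 35 listed values, 10 rested on 10 reads or fewer, and 24 lay under 29.5 RPM, the smallest value that the shallow ginger library lists. By rank, 6 of the 35 (17.1%) were among the 20 highest miRNAs of their library, and all 6 were MIR-398. The matching shares of all listed values were not computed, so these counts do not set the members apart from other names. Summed over the libraries, the copper miRNAs held 16400 reads, of which the MIR-398 5p arm made 64.7%, the MIR-398 3p arm 31.8%, MIR-408 2.34% and MIR-397 1.13%.

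The share of the summed miRNA level taken by the copper miRNAs differed widely among plants. It was 4.09% (3.98–4.20) in tomato, 3.39% (3.27–3.51) in Hami melon and 3.15% (3.04–3.28) in blueberry, and these stood above all others. Orange followed with 1.66% (1.61–1.72). The share was 0.491% (0.469–0.514) in kiwifruit and 0.484% (0.320–0.732) in coconut. Below these came 0.127% (0.108–0.150) in pear, 0.121% (0.109–0.135) in grapefruit and 0.0415% (0.0265–0.0647) in pea. Soybean had the smallest share among libraries with a member, 0.00784% (0.00518–0.0119), on 22 reads. Neighbours in this order with overlapping intervals were Hami melon and blueberry, kiwifruit and coconut, and pear and grapefruit. The mean share was 1.23% ± 1.57 (SD, n = 11), with a median of 0.484%. This order depended on which sequences were counted: with those of 18 nt or more alone, orange led with 1.51%, Hami melon had 1.05%, tomato 0.128% and blueberry 0.0728%. Some names were taken, by their number, to be like pieces of tRNA or rRNA, and no tRNA or rRNA sequence was compared. When these names were left out of the summed level, tomato reached 12.3% and grapefruit 0.981%. The copper reads in these 2 values still included the short sequences of zma-MIR-398b-5p, which made 98.2% of them in tomato and 66.2% in grapefruit.

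**Figure D2:**
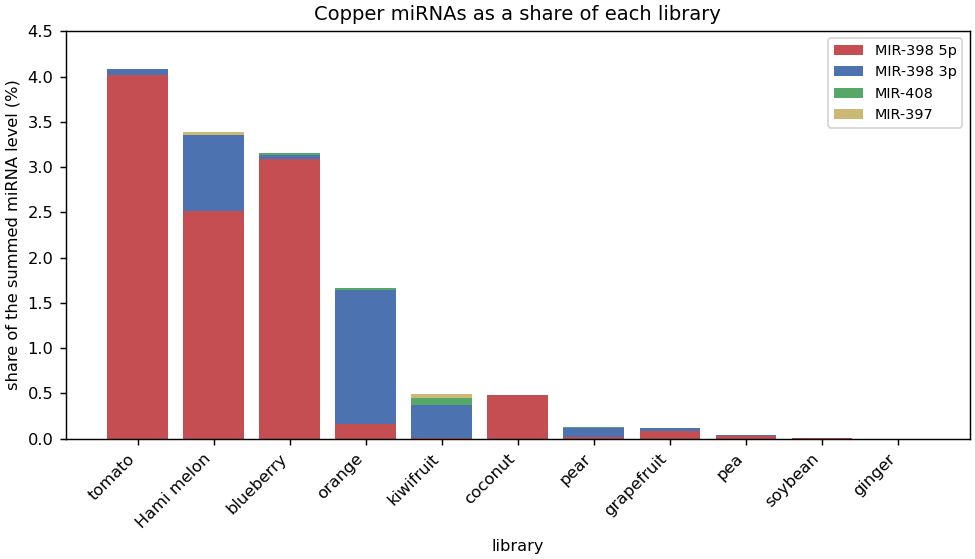
Bars give the share (%) of the summed miRNA level of each library held by the copper miRNAs, stacked by family and arm, with 1 library per plant. Tomato, Hami melon and blueberry reach 4.09, 3.39 and 3.15%, mostly from the MIR-398 5p arm, whereas the 1.66% of orange is mostly the 3p arm.

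Different members made up these shares. The MIR-398 5p arm led in 6 libraries, with 97.9% of the copper reads in blueberry, 98.2% in tomato, 100% in coconut, 74.4% in Hami melon, 73.7% in pea and 66.2% in grapefruit. The MIR-398 3p arm led in 3, with 89.3% in orange, 73.6% in kiwifruit and 73.4% in pear. In soybean MIR-408 led with 40.9% of the 22 copper reads.

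The guide arm of MIR-398, the one that acts on the superoxide dismutases, was carried mostly by mtr-MIR-398c, with 4449 of its 5223 reads over all libraries. Its level was 572 RPM (551–594) in orange, 209.5 RPM (199–221) in kiwifruit, 85.4 RPM (69.9–103) in grapefruit and 26.2 RPM (21.04–32.2) in pear. It was 17.4 RPM (13.8–21.7) in tomato, 15.4 RPM (10.6–21.6) in blueberry, 14.4 RPM (4.68–33.7) in pea and 9.50 RPM (3.08–22.2) in soybean. In RPM both citrus fruits and kiwifruit were thus above the rest, while from pear downwards the intervals of neighbours overlapped. As a share of the summed level, however, grapefruit was at 0.0409% (0.0338–0.0495), under pear with 0.0791% (0.0643–0.0974). In orange it ranked 12th of 111 names and in kiwifruit 17th of 117. The pea and soybean values rested on 5 reads each.

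The listed sequence, that is the most abundant read given for a name and library, was identical to the reference over its whole length in 6 of the 8 libraries (grapefruit, kiwifruit, orange, pea, soybean and tomato). Blueberry and pear carried the same substitution, T1C, at the first base, outside the seed, and the pear sequence was 20 nt long. The forms are shown with bases unlike the reference in capitals.
mtr-MIR-398c, 6 libraries: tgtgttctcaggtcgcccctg
mtr-MIR-398c, blueberry: Cgtgttctcaggtcgcccctg
mtr-MIR-398c, pear: Cgtgttctcaggtcgcccct

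Hami melon did not list mtr-MIR-398c but had the related mtr-MIR-398a-3p at 532 RPM (494–572), rank 11 of 80 names. This name was near its limit elsewhere, with 4.71 RPM (2.69–7.65) in pear, 2.27 RPM (1.14–4.07) in orange and 2.20 RPM (1.05–4.04) in tomato. The third name of this arm, zma-MIR-398b-3p, was listed in orange alone, at 1.65 RPM on 8 reads. The Hami melon sequence had the reference from its first base with 1 additional T in front (capital) and the last base missing, which moves the seed by 1 base, while pear and tomato listed a 20 nt form that starts as the reference does.
mtr-MIR-398a-3p, Hami melon: Ttgtgttctcaggtcacccct
mtr-MIR-398a-3p, pear and tomato: tgtgttctcaggtcacccct

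Taken as the whole arm, the 3p reads of MIR-398 made a share of 1.49% (1.43–1.54) in orange, 0.831% (0.773–0.893) in Hami melon and 0.361% (0.343–0.381) in kiwifruit. The next were pear with 0.0934% (0.0771–0.113) and tomato with 0.0680% (0.0553–0.0836), whose intervals overlap. Grapefruit and blueberry had nearly equal shares, 0.0409% (0.0338–0.0495) and 0.0403% (0.0287–0.0566). The share was 0.0109% in pea and 0.00178% in soybean, and coconut and ginger listed no 3p name. Of the 13 listed 3p sequences, 10 were identical to a stretch of the reference, and all were 20 or 21 nt long.

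The opposite arm looked different. zma-MIR-398b-5p, named after the passenger arm of maize MIR-398b, had the highest levels of any member, with 1613 RPM (1547–1682) in Hami melon, 1177 RPM (1132–1224) in blueberry and 1156 RPM (1125–1188) in tomato. It ranked 9th, 4th and 8th there. In RPM, blueberry and tomato did not differ beyond counting error, and Hami melon was above both. Much lower were grapefruit with 168 RPM (146–192), orange with 62.2 RPM (55.4–69.7) and pea with 40.4 RPM (22.1–67.8). Soybean had 15.2 RPM (6.56–29.9), coconut 14.2 RPM (8.92–21.6) and pear 4.71 RPM (2.69–7.65). The intervals of orange and pea, of pea and soybean, of soybean and coconut and of soybean and pear overlapped. As a share of the summed level, tomato led with 4.02% (3.91–4.12). Blueberry had 3.09% (2.97–3.21) and Hami melon 2.52% (2.42–2.62), and these intervals did not overlap. Coconut, at 0.484% (0.320–0.732), stood above orange with 0.161% (0.143–0.180) and grapefruit with 0.0803% (0.0701–0.0920). The name was not listed in ginger or kiwifruit, and held 10563 reads in sum.

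In none of the 9 libraries was the listed sequence of zma-MIR-398b-5p a full-length copy of the reference. It was 17 nt long in Hami melon, coconut, grapefruit, pea, pear and soybean and 16 nt long in blueberry, orange and tomato, and the shorter form is the start of the longer one. Slid along the reference without gaps, each had 1 mismatch (G4A, counted on the reference), 2 bases in front of the reference start, and 6 or 7 bases of the reference missing at the 3′ end. With gaps allowed, 2 edits were needed. Thus 1 sequence, with 1 base more or less at its end, stood for this name in plants of different orders. Bases unlike or outside the reference are in capitals.
zma-MIR-398b-5p, 6 libraries: GGgggAcggactgggaa
zma-MIR-398b-5p, blueberry, orange and tomato: GGgggAcggactggga
mtr-MIR-5266, kiwifruit: gggggacggactggg

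The third line is not a member. It was the only other name whose listed sequence shared 12 or more consecutive bases with a member's, and it is shown because kiwifruit, which lacked zma-MIR-398b-5p, listed the first 15 bases of the same sequence under this name. Its level there was 37.9 RPM (33.3–42.9) on 247 reads, rank 31. Its own reference, of 20 bases, differed from it by 2 mismatches. Counted by sequence and not by name, this short sequence was in 10 of the 11 libraries, all but ginger. Its place in the genomes of these plants was not analysed here.

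The other 5p names were rare. ptc-MIR-398c-5p was listed in kiwifruit alone, with 6.14 RPM (4.38–8.36) on 40 reads, and its sequence had the full 21 nt with C5T and A13G. ath-MIR-398a-5p was listed in pear alone, with 1.47 RPM (0.478–3.43) on 5 reads, 15 nt long, with C10A and 1 base outside the reference.
ptc-MIR-398c-5p, kiwifruit: ggagTgacctgaGatcacatg
ath-MIR-398a-5p, pear: GaaggagtggAatgt

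Length and match therefore separated zma-MIR-398b-5p, nearly the same sequence in each of 9 libraries, from most other copper miRNAs. Of the 35 listed member sequences, 10 were under 18 nt (28.6%), beside 18.9% of all listed sequences. All 10 were among the 11 sequences of the MIR-398 5p arm, and 0 of the 24 others were this short. Of these 10, 9 were zma-MIR-398b-5p and 1 was ath-MIR-398a-5p, while ptc-MIR-398c-5p had the full 21 nt. The commonest length was 21 nt, in 20 of 35 (57.1%), beside 440 of 950 (46.3%) over all names. Members were identical to a stretch of their reference in 19 of 35 (54.3%), close to the 55.1% of all listed sequences, and these were 19 of the 24 sequences outside the 5p arm (79.2%). More than 2 differences, counting bases outside the reference, were found in 9 of 35 (25.7%), all of zma-MIR-398b-5p, beside 11.1% of all. Among the 26 names listed in 8 or more libraries, 3 had no sequence of 18 nt or more, namely bdi-MIR-5054, ppt-MIR-1029 and zma-MIR-398b-5p. No test was made of these shares, since the names of a family share reads.

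**Figure D3:**
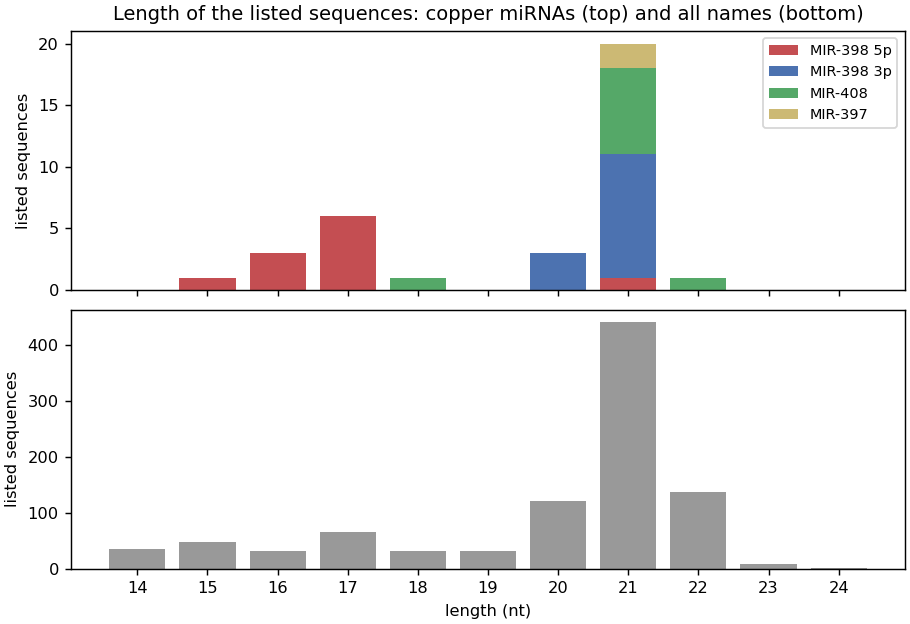
Numbers of listed sequences by length (nt) for the copper miRNAs (top, stacked by family and arm) and for all 418 names (bottom), counted over all libraries. The copper sequences peak at 21 nt (20 of 35), and the 10 sequences under 18 nt all belong to the MIR-398 5p arm.

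The balance of the 2 arms was then compared within each library, where both arms share 1 read total. It still depends on depth through the listing limit and, for the log2 ratio, through the pseudocount of 1 RPM. In coconut, with no 3p name listed, the pseudocount stood for the 3p arm in the log2 ratio of 3.93. The 5p arm made 98.7% (98.2–99.1) of the MIR-398 reads in blueberry, 98.3% (98.0–98.6) in tomato and 75.2% (73.6–76.7) in Hami melon. It made 66.2% (60.8–71.2) in grapefruit, 73.7% (51.2–88.2) in pea, 61.5% (35.5–82.3) in soybean and 100% (85.1–100) in coconut, where the last 3 rested on 19, 13 and 22 reads. The 3p arm was the larger in pear, orange and kiwifruit, where the 5p share was 16.7% (11.2–24.1), 9.75% (8.76–10.9) and 2.84% (2.10–3.85). The 2 citrus fruits, grapefruit and orange, thus lay on opposite sides.

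**Figure D4:**
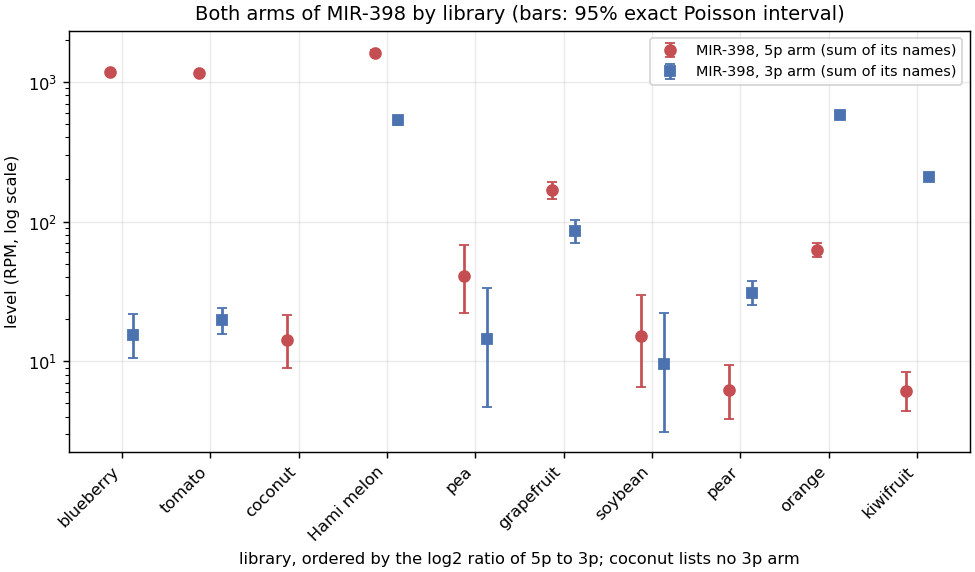
Summed level (RPM, log axis) of the MIR-398 5p names (circles) and 3p names (squares) in each of the 10 libraries with any MIR-398, ordered by the ratio of the arms, with bars for the 95% exact Poisson interval. The 5p arm is higher in 7 libraries, from blueberry to soybean, and the 3p arm in pear, orange and kiwifruit; coconut lists no 3p name.

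Over these 10 libraries the mean log2 ratio of 5p to 3p (on log2 of RPM plus 1) was 1.03 ± 3.67 (SD, n = 10), with 5p higher in 7 and 3p higher in 3. The two-sided exact sign-flip permutation test gave p = 0.391 (0.391 adjusted over 2 tests), and with 10 libraries p cannot go below 0.00195. A common direction was thus not detected, which does not show that there is none. In 9 of the libraries the 5p names included zma-MIR-398b-5p with its sequence of 16 or 17 nt, so the test compared names. The mean ratio was 1.34 with a pseudocount of 0.1 RPM and 0.790 with 10 RPM. It depended on which sequences were counted, and was -5.59 with those of 18 nt or more alone and -5.44 with those of at most 2 differences alone. Under these limits a 5p name was left in 1 and 2 libraries, beside 9 with a 3p name, so the direction in the others was set by the limit and neither value measures a balance of 2 listed arms.

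MIR-408, which acts on laccases and plantacyanin, was listed under 4 names that are forms of 1 sequence. Its summed level was 44.5 RPM (39.5–49.9) in kiwifruit, on 290 reads, and 17.1 RPM (7.82–32.5) in soybean, on 9 reads. It was 10.3 RPM (6.43–15.5) in blueberry, 6.41 RPM (4.35–9.10) in orange, 5.84 RPM (2.52–11.5) in Hami melon, 5.00 RPM (2.91–8.01) in pear and 1.32 RPM (0.484–2.87) in tomato. In RPM, kiwifruit was above all others, soybean to pear had overlapping intervals from each to the next, and tomato was just below pear. By share of the summed level, kiwifruit was again above all others, with 0.0767% (0.0684–0.0861). Soybean then had the lowest share among the libraries that listed MIR-408, 0.00321% (0.00169–0.00609). Its interval overlapped those of tomato, at 0.00458%, and Hami melon, at 0.00911%. Most of the kiwifruit level came from smo-MIR-408, the 22 nt form, at 41.7 RPM (36.9–47.0), rank 30, with osa-MIR-408-3p at 2.76 RPM. In blueberry, ppt-MIR-408b had 6.06 RPM and osa-MIR-408-3p 4.20 RPM, while soybean listed ppt-MIR-408b and the other 4 libraries mtr-MIR-408-3p.

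The MIR-408 sequences were close to their references, and 8 of the 9 were identical to a stretch of them. The exception was orange, with A1T at the first base. Tomato listed an 18 nt piece that lacks the first and the last 2 bases. Both are shown, with the unlike base in capitals, beside the form of Hami melon and pear.
mtr-MIR-408-3p, Hami melon and pear: atgcactgcctcttccctggc
mtr-MIR-408-3p, orange: Ttgcactgcctcttccctggc
mtr-MIR-408-3p, tomato: tgcactgcctcttccctg

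MIR-397, a regulator of laccases, was listed only as mtr-MIR-397-5p, its guide arm. The level was 24.7 RPM (21.03–28.8) in kiwifruit, on 161 reads, and 18.2 RPM (11.8–26.9) in Hami melon, on 25 reads, so the intervals overlap. The kiwifruit sequence was identical to the reference, and that of Hami melon began 1 base later and ended in a T outside it. No library listed MIR-857, a family described in Arabidopsis.
mtr-MIR-397-5p, kiwifruit: tcattgagtgcagcgttgatg
mtr-MIR-397-5p, Hami melon: cattgagtgcagcgttgatgT

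More members were listed in libraries with a larger read total. This total is the one behind RPM, and is smaller than the number of filtered reads that the study gives for each library. Kiwifruit, orange and pear listed 5 names, blueberry, Hami melon and tomato 4, soybean 3, grapefruit and pea 2, coconut 1 and ginger 0. Of all names, these libraries listed, in the same order, 117, 111, 95, 87, 80, 118, 127, 65, 80, 38 and 32. The relation of all names to the read total was not computed, so the rise cannot be called particular to the copper names. Over the 11 libraries the number of copper names rose with the read total, with Pearson's r = 0.756 (permutation p = 0.00783, adjusted p = 0.0104 over 4) and Spearman's rho = 0.835 (permutation p = 0.00226, adjusted p = 0.00576). When orange and kiwifruit were left out, as the 2 with read totals farthest from the median, r was 0.675 (exact permutation p = 0.0444, n = 9). The members also rose with the number of all names listed, with r = 0.806 (permutation p = 0.00288, adjusted p = 0.00576) and rho = 0.686 (permutation p = 0.0232, adjusted p = 0.0232). That relation rested on ginger and coconut, since without them r was 0.495 (exact permutation p = 0.177, n = 9). Counting only values of 29.5 RPM or more, which all 11 libraries could list, r with the read total was 0.440 (permutation p = 0.172). It was 0.575 (permutation p = 0.0620) for families and arms in place of names. Other measures of depth were tried after seeing the data, and r was 0.489 (permutation p = 0.126) with the reads assigned to miRNAs and 0.621 (permutation p = 0.0352) with the filtered reads. No correlation was computed within squeezed or ground juice, with 5 libraries each.

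**Figure D5:**
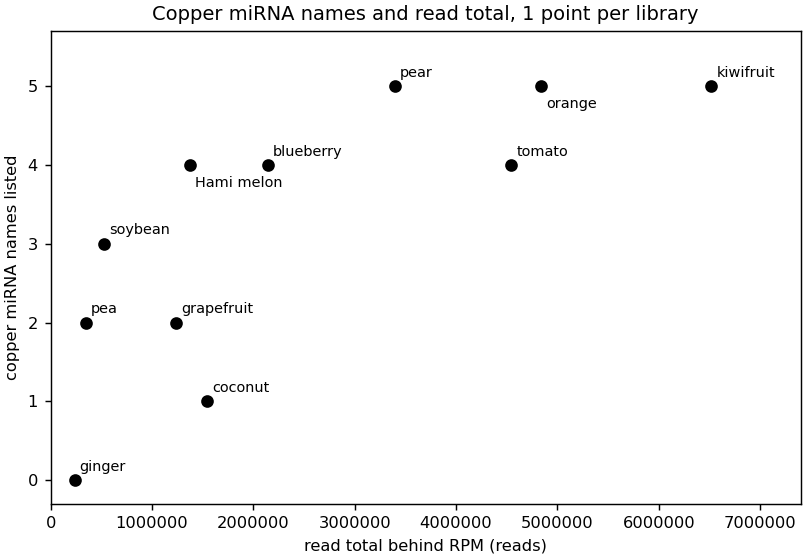
Number of copper miRNA names listed against the read total behind RPM (reads), 1 point per library. Ginger, the shallowest library, lists 0 names, and pear, orange and kiwifruit list 5.

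The copper miRNAs were also set beside the other nutrient miRNAs, the phosphate and sulphate families MIR-395, MIR-399, MIR-827 and MIR-2111, which respond to shortage of those nutrients and hold 27 names. The mean share was 1.23% for copper and 0.504% for phosphate and sulphate, and the mean difference was 0.729 percentage points ± 1.70 (SD, n = 11). Copper was higher in 6 libraries and lower in 4, and ginger listed neither. The two-sided exact sign-flip permutation test gave p = 0.182 (0.363 adjusted over 2 tests). With sequences of 18 nt or more alone the direction turned, to -0.22 percentage points (exact permutation p = 0.0430, not adjusted). This limit takes out 10 of the 11 MIR-398 5p sequences, an arm that held 64.7% of the copper reads. The turn thus follows from the limit and is not a separate result. The largest phosphate and sulphate share was in orange, 3.35%, the library whose copper share was mostly the MIR-398 3p arm, and in tomato it was 0.0367%, where copper was highest.

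For the members of 8 or more libraries, the names with the most similar levels were sought among the 35 names listed in 6 or more libraries, by Spearman's rho over the 11 libraries, as a description. The nearest to mtr-MIR-398c was ath-MIR-403-3p (rho = 0.847), followed by mtr-MIR-396a-5p (0.615) and mtr-MIR-162 (0.596). The nearest to zma-MIR-398b-5p was osa-MIR-5077 (0.592), followed by gma-MIR-166h-3p (0.538) and ppt-MIR-1029 (0.354). Between the 2 members themselves rho was -0.018, and for the summed RPM of the 2 arms, which counts the 3p reads that Hami melon lists under mtr-MIR-398a-3p, it was 0.405. These values share the libraries and their depth.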

How the data were processed

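The authors filtered the reads of 11 small RNA libraries (HiSeq) and ran MIRPIPE against the mature plant sequences of miRBase 21, with 2 mismatches at most. The deposited levels are in RPM, with 1 sequence per miRNA and library. The filtered reads per library, which the study gives, served only as another depth. The tables hold no fold changes or p-values. The merged table was used, and its 950 values above 0 equalled those of the single-library files. All 950 came out as whole reads, to a tolerance of 0.01, once divided by the smallest step of their library, which gave reads and read totals. No count model was fitted, since each plant has 1 library.

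Sequences were slid along the listed reference without gaps, and bases outside it were counted apart. Shares are of the summed level of a library. Paired comparisons over libraries used sign-flip permutation tests with a pseudocount of 1 RPM for the arm ratio, and relations used 100000 permutations, with Benjamini-Hochberg adjustment. The miRNAs named are all members and, for those in 8 or more libraries, the 3 names of highest Spearman's rho among names in 6 or more libraries; mtr-MIR-5266, bdi-MIR-5054 and ppt-MIR-1029 were singled out after their values were seen. The members and lists were chosen with earlier results of these data known. On simulated data the read total was recovered in 200 of 200 trials. Each simulated library held 2 consecutive read counts, which fixes the step, so this does not test libraries without them. The sign-flip test passed 0.05 in 9 of 200 simulated trials with no true difference. The tools were matplotlib 3.10.9, scipy 1.17.1, pandas 2.3.3 and numpy 2.4.6 in Python 3.11.15.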

Additional observations from a re-analysis of the deposited data

How the results depend on the processing

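With sequences of 18 nt or more alone, the MIR-398 5p arm was listed in 1 library, so the mean log2 arm ratio of -5.59 is mostly 3p against 0. With the same 5p sequences taken out, the copper difference from phosphate and sulphate turned to -0.22 percentage points, and the median copper share fell to 0.0734%. With at most 2 differences, which left the 5p arm in 2 libraries, the arm ratio was -5.44. With values of 29.5 RPM or more alone, MIR-397 was listed in 0 libraries, the MIR-398 5p arm in 6, its 3p arm in 4 and MIR-408 in 1, and r of names with the read total was 0.440 (permutation p = 0.172). With 10 reads or more alone, MIR-408 was listed in 4 libraries. That r was 0.575 (permutation p = 0.0620) for families and arms in place of names and, in alternatives chosen after seeing the data, 0.489 (permutation p = 0.126) with the reads assigned to miRNAs and 0.621 (permutation p = 0.0352) with the filtered reads of the study as depth. Without the names taken to be like pieces of tRNA or rRNA in the denominator, 11 by number, the median copper share was 0.775%.

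Over all alternatives, 16 of 18 kept the direction and side of the threshold for the arm ratio, 14 of 15 for phosphate and sulphate, and 14 of 17 for names and read total. Most of these, 10, 11 and 11, only left out 1 library, and all of those kept both. For names and read total, the limit of 29.5 RPM, families and arms, and the reads assigned to miRNAs did not keep the side of the threshold. Leaving out each library in turn gave 0.459 to 1.69 for the arm ratio, 0.397 to 0.971 percentage points for the difference and 0.719 to 0.803 for r. Counting mtr-MIR-5266 of kiwifruit with the 5p arm gave a ratio of 1.30, and only libraries with both arms 0.71 (both chosen after seeing the data). No replicate block could be fitted, since each plant has 1 library. The causes were not tested.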

Other observations

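How the juice was made follows the plant and cannot be told apart from it, so the values are given without a test. The copper share was 0.121 to 3.15% in the 5 squeezed libraries (median 0.491%) and 0 to 4.09% in the 5 ground ones (median 0.0415%), and the ranges overlapped. The share of the MIR-398 3p arm was 0.0403 to 1.49% (median 0.0934%) in squeezed and 0 to 0.831% (median 0.0109%) in ground libraries.

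The copper shares of other libraries moved as well. Leaving out the names taken to be like pieces of tRNA or rRNA raised the share in all 10 libraries with a member, beyond counting error in 6. Counting only sequences of 18 nt or more lowered the share in 9 of them and raised it in kiwifruit. In 7 the new share lay outside that interval.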
